A study of Homo sapiens with 4 samples.

Results

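The *OAS* genes encode the 2′-5′-oligoadenylate synthetases, the enzymes that open one of the antiviral pathways induced by interferon. The family was taken as the 4 genes *OAS1*, *OAS2*, *OAS3* and *OASL*, chosen by symbol among the 57820 genes of the count table, and all 4 passed the filter on low counts, which kept 20528 genes. The 4 RNA-seq libraries came from SK-N-SH, an established human neuroblastoma cell line in which adrenergic and mesenchymal cells coexist. In 2 libraries the cells carried a lentivirus expressing the lncRNA *RP5-998N21.4* from the EF1a promoter (*RP5-998N21.4* OE), and in 2 libraries they carried the empty lentivirus with no insert (vector control). Both groups were therefore transduced, no untransduced library was analysed here, although the control titles say WT. The comparison addressed whether expression of the lncRNA moved genes of the interferon response.

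OAS1, OAS2 and OAS3 bind double-stranded RNA and join ATP into 2′-5′-linked oligoadenylates (2-5A), the small messenger through which the pathway acts. The 3 enzymes differ in how many copies of the OAS unit they carry, OAS3 carrying the most. OASL keeps the OAS fold without the synthetase activity and carries ubiquitin-like domains through which it aids RIG-I, a sensor of viral RNA. 2-5A is removed by phosphodiesterases, of which PDE12 is one, and all members of the family are transcribed in response to interferon.

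*OAS1*, *OAS3* and *OAS2* lie next to each other, in that order, on chromosome 12 of hg19 (plus strand). *OAS1* (ENSG00000089127.8) spans chr12:113343661-113371024, *OAS3* (ENSG00000111331.8) spans chr12:113375856-113414265 and *OAS2* (ENSG00000111335.8) spans chr12:113416200-113449528. The cluster covers 105868 bp, with gaps of 4831 bp between *OAS1* and *OAS3* and 1934 bp between *OAS3* and *OAS2*. *OASL* (ENSG00000135114.8) lies on the minus strand, 8006037 bp beyond *OAS2*, at chr12:121455566-121477049.

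The RefSeq promoter table (GRCh38.p14) held *OAS1* and *OAS3*, 2 of the 4 members, and had no entry for *OAS2* and *OASL*. Each entry runs from 250 bases before to 50 bases after the RefSeq start site of the gene, which lies inside the wider gene spans given above, and each matched chromosome 12 of hg19 exactly once. They were searched on both strands for the core of the interferon-stimulated response element, GAAANNGAAA, bound by IRF9 and related IRF factors, and for the same core with a shorter spacer, GAAANGAAA, which was added after the sequences were seen. The windows of 30 bases that hold the matches are shown because interferon acts on these genes through such elements. Capitals mark the matched bases, all on the plus strand, and positions count from that RefSeq start site.
OAS1, base -28 to base 2, chr12:113344739-113344768: tcccttctgagGAAACGAAAccaacagcag
OAS3, base -156 to base -127, chr12:113376123-113376152: gctagaaaGAAACGAAACTGAAAgcaggga
OAS3, base -22 to base 8, chr12:113376257-113376286: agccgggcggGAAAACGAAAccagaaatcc
The *OAS1* window holds 1 match of GAAANGAAA and no match of GAAANNGAAA. The upstream *OAS3* window holds both cores, which overlap, and the *OAS3* window at the RefSeq start site holds GAAANNGAAA. Of all 35116 promoters in the table, 3.57% held GAAANNGAAA and 3.12% held GAAANGAAA. The *OAS1* window lies downstream of position 113344582, where the annotation starts the *OAS1* transcript that held most of the counts described below. A match describes the sequence only, and binding was not measured in these libraries.

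Library totals ranged from 23785164 to 28307591 counts, and 0 counts leave room for up to 3, which is at most 0.129 CPM (a gene's counts relative to its library's total after TMM scaling). Limits and intervals on counts cover counting error only. For the overexpressed gene the counts were 32 and 33 with the empty vector against 2407 and 2808 in OE. Replicate libraries differed by more than sampling noise, with a chi-square per degree of freedom of 61.7 in the vector control and 70.6 in OE. The labels do not say whether replicates came from separate transductions, so that p-values measure the spread between these libraries only, which may be technical. Of 9 adrenergic neuroblastoma markers chosen as a list, 8 were tested and all 8 were higher in both OE libraries, against 27.8% of all tested genes. Of these, edgeR gave 6 an unadjusted p under 0.05 (10.1% of all tested genes in that direction) and DESeq2 called 5 (4.35%). Their summed level was 426 to 493 CPM in the vector control and 789 to 831 CPM in OE. *TH*, the first enzyme of catecholamine synthesis, had 0 counts in all 4 libraries, while *HAND2* and *DBH* were above 20 CPM in each. Of 6 mesenchymal markers, 4 were lower in both OE libraries (27.6% of all tested genes), 1 was higher (*VIM*) and 1 overlapped, and their summed level was 2070 to 2100 CPM in the vector control and 1610 to 2570 CPM in OE. Without *VIM*, a check added after seeing the data, the sum was 1750 and 1720 CPM in the vector control and 1320 and 1240 CPM in OE, lower in both OE libraries. The adrenergic markers were thus higher, and 4 of the 6 mesenchymal markers lower, in the libraries where *OAS1*, *OAS2* and *OAS3* were higher. The part of either list in the *OAS* differences was not tested. Markers of leukocytes, glia, epithelium and liver summed to between 1.67 and 3.83 CPM in any library, and *CD3E*, *LYZ* and *ALB* had 0 counts throughout.

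Expression of the 3 enzymatically active synthetases was higher in the *RP5-998N21.4* OE libraries, and that of *OASL* was not distinguishable between the groups. Mean expression in OE relative to the vector control was 4.17-fold for *OAS2*, 2.27-fold for *OAS3*, 1.86-fold for *OAS1* and 1.27-fold for *OASL*. The groups did not overlap in *OAS1*, *OAS2* and *OAS3*, the OE libraries being the higher, a pattern shown by 27.8% of all tested genes in that direction (55.4% counting either direction). In edgeR's quasi-likelihood test, 3 of the 4 members had an unadjusted p under 0.05 and higher expression, against 10.1% of all tested genes. None of the 4 passed an adjusted p under 0.01 with a log2 fold change beyond 0.5, and neither did any other gene (0% of 20528). The calls turned on the test. Under the Wald test of DESeq2, the tool the study used for differential expression, 3 members (*OAS1*, *OAS2* and *OAS3*) passed the same thresholds in the upward direction, against 4.35% of tested genes upward, 4.42% downward and 8.77% in all. In bulk RNA, more cells that express a gene and more RNA per expressing cell cannot be told apart.

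*OAS3*, the largest of the synthetases, had the most counts of the 4 members. The vector control libraries held 1181 and 1168 counts, those of OE 2643 and 3536. In normalized expression this was 50.7 and 49.7 CPM in the vector control and 105 and 122 CPM in OE, so that the replicates of the vector control nearly coincided and the lower OE library was still above them by more than the spread of either group. The means were 50.2 ± 0.714 CPM (SD, n = 2) and 114 ± 12 CPM (SD, n = 2). The log2 fold change of 1.18 had a 95% interval from 0.86 to 1.50 (standard error 0.112, unadjusted p = 0.000635, adjusted p = 0.0629 from edgeR's test). Only 0.999% of the tested genes had a smaller p, and 85.1% had a lower mean expression. Under DESeq2 the adjusted p was 1.03e-19. All of its counts fell on 1 of 7 listed transcripts, ENST00000228928.7, in every library, so the summing over transcripts had no bearing on its value.

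*OAS2* showed the largest relative difference of the 4 in CPM, on few counts. On the length-scaled level described below its fold was 2.33, with an *OAS2* to *OAS3* ratio that overlapped between the groups. With the empty vector 28 and 17 counts were found, against 99 and 119 in OE. Its normalized expression was 1.2 and 0.724 CPM in the vector control and 3.95 and 4.11 CPM in OE, so that both OE libraries were more than 3-fold above the higher vector control library. The log2 fold change was 2.06 with a 95% interval from 1.15 to 2.97 (standard error 0.319, unadjusted p = 0.0037, adjusted p = 0.0933 from edgeR's test). Among the 20528 tested genes its log2 fold change ranked 248 from the top. Under DESeq2 the adjusted p was 6.45e-07. The size rested on the vector control libraries, since leaving out their replicate 1 gave a log2 fold change of 2.46 and leaving out their replicate 2 gave 1.74.

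*OAS1*, the smallest of the active synthetases, reached 126 and 102 counts with the empty vector, against 200 and 294 in OE. These counts correspond to 5.41 and 4.34 CPM and to 7.97 and 10.2 CPM, so that the groups did not overlap although the replicates of each group stood apart. The log2 fold change was 0.89 with a 95% interval from 0.26 to 1.52 (standard error 0.221, unadjusted p = 0.0175, adjusted p = 0.156 from edgeR's test). Under DESeq2 the adjusted p was 0.00597. The unadjusted p of edgeR's test was 0.0712 without vector control replicate 2 and 0.0698 without OE replicate 2, with log2 fold changes of 0.74 and 0.71.

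*OASL*, the member without synthetase activity, reached 65 and 42 counts with the empty vector, against 70 and 88 in OE. Its normalized expression was 2.79 and 1.79 CPM in the vector control and 2.79 and 3.04 CPM in OE, so that the first vector control library reached the level of the lower OE library. The log2 fold change was 0.35 with a 95% interval from -0.50 to 1.20 (standard error 0.297, unadjusted p = 0.310, adjusted p = 0.568 from edgeR's test), an interval that holds 0 as well as the estimates of *OAS1* and *OAS3*. Leaving out vector control replicate 1 gave 0.70, and leaving out the other vector control library gave 0.06.

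**Figure D1:**
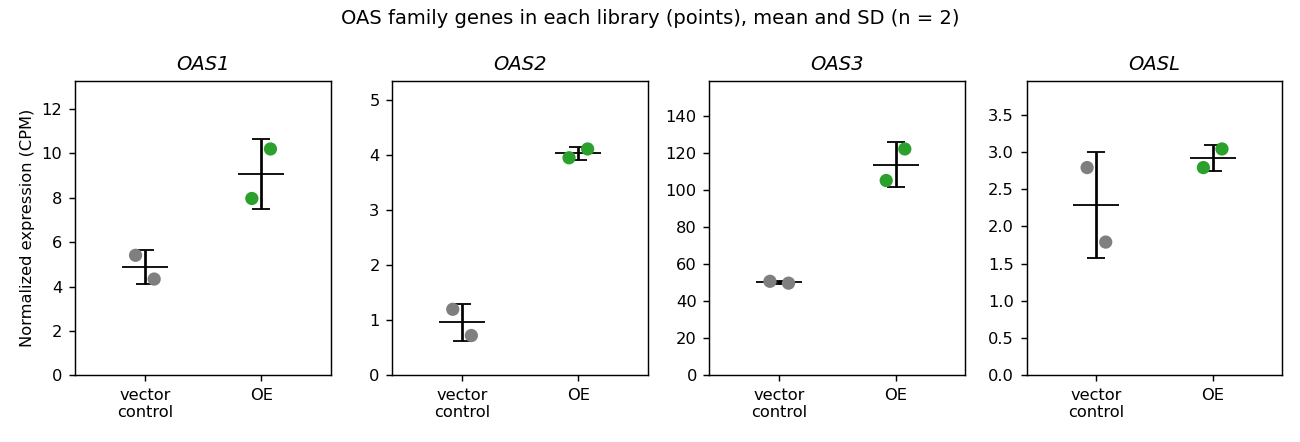
Normalized expression (CPM, linear axes that start at 0) of *OAS1*, *OAS2*, *OAS3* and *OASL* in each of the 2 vector control and 2 OE libraries, with the mean and SD of each group. Both OE points lie above both vector control points for *OAS1*, *OAS2* and *OAS3*, while for *OASL* 1 vector control library at 2.79 CPM stands beside the OE libraries at 2.79 and 3.04 CPM.

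To compare levels between genes, the counts of each transcript were divided by its annotated length and given per kb on the CPM scale. *OAS3* was by far the most abundant member on this scale, with 7.61 ± 0.108 (SD, n = 2) in the vector control and 17.2 ± 1.81 (SD, n = 2) in OE. *OAS1* followed with 1.48 ± 0.345 and 2.59 ± 0.443. *OASL*, with 0.700 ± 0.217 and 0.892 ± 0.0546, stood above *OAS2* in the vector control, where *OAS2* was at 0.373 ± 0.0985. In OE, *OAS2* was at 0.872 ± 0.0258 and did not differ from *OASL* beyond the spread of the libraries.

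*OAS3* made up 71.8% and 78.3% of the summed level of the family in the vector control and 80% and 79.7% in OE. *OAS1* held from 11.4% to 16.1% of that sum in any library, *OAS2* from 3.16% to 4.28% and *OASL* from 4% to 7.97%. The shares depended on the length scaling, which for *OAS2* divides part of its vector control counts by the length of a shorter transcript described below. In CPM, a scale added after seeing the data, *OAS2* held 2% and 1.28% of the family in the vector control and 3.29% and 2.95% in OE, higher in both OE libraries, while *OAS3* held 84.4% and 87.9% in the vector control and 87.7% and 87.6% in OE, with overlapping groups. Between group means the fold of *OAS2* was 4.18 in CPM and 2.33 on the length-scaled level. The family sum was 10.7 and 9.62 in the vector control and 19.9 and 23.2 in OE, a ratio of 2.12 between the group means. With 2 libraries against 2, the exact two-sided permutation test gave p = 0.333 for this sum, the smallest value that the design allows.

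Ratios between members within a library were compared for the 6 pairs. The length-scaled level of *OAS2* relative to *OASL* was 0.519 and 0.556 in the vector control and 1 and 0.957 in OE. *OAS3* relative to *OASL* was 9 and 13.8 in the vector control and 18.7 and 19.9 in OE. Both ratios were thus higher in each OE library. The ratio of *OAS2* to *OAS3* was 0.0577 and 0.0403 in the vector control and 0.0535 and 0.048 in OE on the length-scaled level, so that the groups overlapped. In CPM the same ratio was 0.0237 and 0.0146 in the vector control and 0.0375 and 0.0337 in OE, higher in both OE libraries. The other 5 pairs had the same direction on both scales. Exact two-sided permutation p-values on the length-scaled level were 0.333 in 5 of the 6 pairs and 1 for *OAS2* to *OAS3*, and the smallest was 0.40 after Benjamini-Hochberg adjustment over the 6 pairs. Since 0.333 is the smallest value this test can give here, it does not bear on whether the members differed in response.

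**Figure D2:**
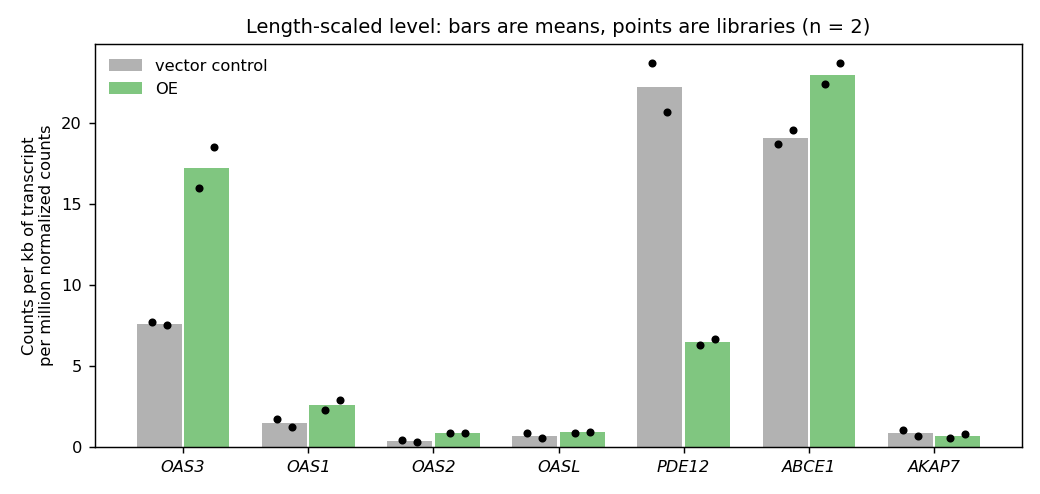
Length-scaled level (linear axis, normalized counts per kb of transcript) of the *OAS* genes and of the genes around 2-5A turnover. Bars are means of 2 libraries and points are the libraries, with *OAS3* going from a mean of 7.61 to 17.2 and *PDE12* from 22.2 to 6.47.

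The counts of *OAS2* were divided between 2 transcripts in the vector control and lay on 1 of them in OE. ENST00000449768.2, a 2-exon transcript of 2072 nt that ends early in the gene, held 16 of the 28 counts in vector control replicate 1 (57.1%, 95% Wilson interval 39.1 to 73.5) and 13 of the 17 counts in replicate 2 (76.5%, 52.7 to 90.4). In the OE libraries it held 0 of 99 and 0 of 119 counts, which allows shares of up to 3.03% and 2.52%. ENST00000392583.2, the 10-exon transcript of 4622 nt, held the other 12 and 4 counts with the empty vector and all 99 and 119 in OE. The 2 transcripts share 538 nt of exon, and 4084 nt are found only in the longer one. When the transcript with the highest mean count stood for the gene, the log2 fold change of *OAS2* was 3.54, against 2.06 for the sum. How the authors' counting divided reads in the shared exons is not given in the sources used here, and the difference between transcripts was not tested.

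For *OAS1*, 2 of 11 listed transcripts had counts. ENST00000452357.2 held all counts of 3 libraries and 93 of the 126 counts in vector control replicate 1. The other 33 counts of that library (26.2%, 95% Wilson interval 19.3 to 34.5) lay on ENST00000553152.1, whose 2412 nt are all contained in the 3504 nt of the first. With ENST00000452357.2 alone the log2 fold change of *OAS1* was 1.12, against 0.89 for the sum. *OASL* had counts on 1 of 3 listed transcripts.

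Members could in principle share reads, since they are paralogs, but their annotated transcripts had between 0 and 14 sequences of 31 bases in common in any pair, of at least 6395 in each gene. An antisense gene, ENSG00000257452.1, overlaps exons of *OAS1* and had 0 counts in all 4 libraries, although without strand its reads could not be told from those of *OAS1*. No other gene was annotated on exons of *OAS2*, *OAS3* or *OASL*.

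**Figure D3:**
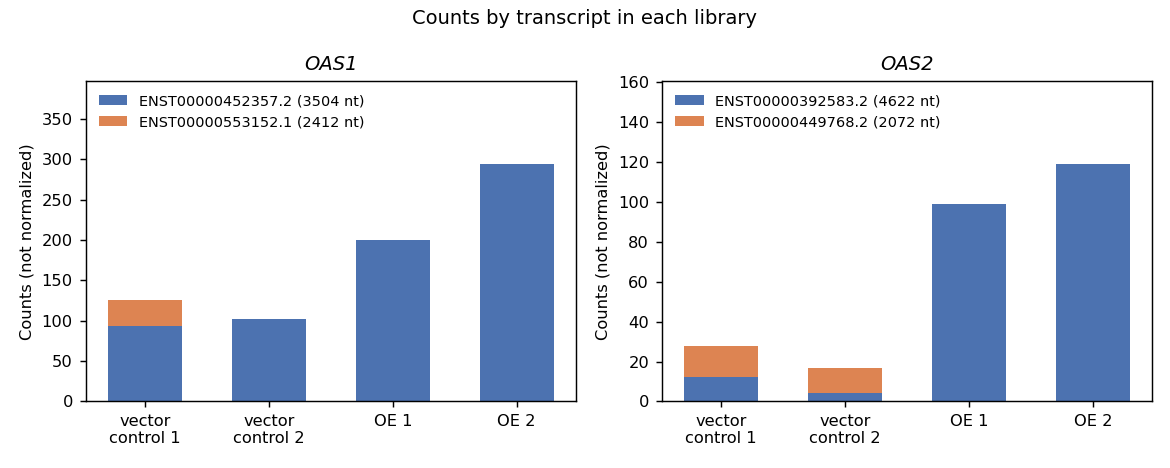
Counts on each transcript of *OAS1* and *OAS2* in the 4 libraries (linear axis, not normalized), with annotated lengths in the legend. The 2072-nt transcript of *OAS2* has 16 and 13 counts in the vector control and 0 in both OE libraries, and the 2412-nt transcript of *OAS1* has 33 counts in vector control replicate 1 only.

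*PDE12*, a 2′-phosphodiesterase that degrades 2-5A and also trims poly(A) of mitochondrial RNA, was lower where the synthetases were higher. Of the 3 genes around the turnover of 2-5A, it differed most. Its counts were 1678 and 1477 with the empty vector, against 479 and 585 in OE. This was 72.1 and 62.9 CPM in the vector control and 19.1 and 20.2 CPM in OE, with both OE libraries far below both vector control libraries. The mean expression was 3.43-fold lower in OE, a log2 fold change of -1.78 with a 95% interval from -2.12 to -1.44 (standard error 0.119, unadjusted p = 0.000174, adjusted p = 0.0415 from edgeR's test). It did not pass the adjusted p under 0.01, and it passed 0.05, together with 0.594% of all tested genes at that threshold. Of all tested genes, 3.12% had a log2 fold change of this size or larger in either direction. Under DESeq2 the adjusted p was 3.68e-37, and leaving out any single library gave log2 fold changes from -1.88 to -1.68. In edgeR's test the adjusted p no longer passed 0.05 with a library left out (0.0861 to 0.131), with the replicate block (0.296) or with the transcript of highest mean count (0.0603). All counts fell on 1 of 2 listed transcripts, and no exon of another gene was annotated on *PDE12* (chr3:57542001-57552575, plus strand). *OAS3* per unit of *PDE12* went from 0.324 and 0.364 in the vector control to 2.54 and 2.78 in OE on the length-scaled level. 2-5A itself was not measured.

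*ABCE1*, a ribosome recycling factor first described as an inhibitor in the 2-5A pathway, had 72.7 and 76.1 CPM in the vector control and 86.6 and 92 CPM in OE (log2 fold change 0.26, adjusted p = 0.223 from edgeR's test). *AKAP7*, an anchoring protein with a phosphodiesterase domain, had 3.26 and 2.17 CPM in the vector control and 1.75 and 2.49 CPM in OE, with overlapping groups.

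Other tested sensors of double-stranded RNA and their adaptors had log2 fold changes smaller in size than that of *OAS1* (0.89). These are point estimates, and the interval of *TLR3* (-0.02 to 1.18) contained the *OAS1* value. EdgeR's test called none of them, as it called none of the 20528 tested genes. DESeq2 called *IFIH1* among them (adjusted p = 0.00203). Of 9 sensors and adaptors, 7 were tested, of which 4 were higher and 2 lower in both OE libraries (27.8% and 27.6% of all tested genes), and the median log2 fold change was 0.06, against 0.01 over all tested genes. At an unadjusted p under 0.05, 1 was higher (*IFIH1*) and 1 was lower (*MAVS*), against 20.8% of all tested genes in either direction. *IFIH1*, the cytosolic sensor MDA5, was at 13.4 and 12.2 CPM in the vector control and at 18.1 and 18.6 CPM in OE (edgeR log2 fold change 0.52 with standard error 0.121 and adjusted p = 0.147). *TLR3*, the endosomal sensor, had the largest difference of the list, at 17.9 and 15.2 CPM in the vector control and 20.9 and 28.5 CPM in OE (log2 fold change 0.58, standard error 0.210, adjusted p = 0.251 in edgeR's test). *EIF2AK2*, the kinase PKR, which like OAS1 is switched on by double-stranded RNA, differed by 0.13 on the log2 scale (standard error 0.0870). *ADAR*, which edits double-stranded RNA, differed by 0.06 (standard error 0.0443). *DDX58*, the sensor RIG-I that OASL acts on, had overlapping groups, at 27.1 and 18.5 CPM in the vector control and 19.6 and 25.9 CPM in OE. The 2 genes lower in both OE libraries were the adaptors *MAVS* (log2 fold change -0.26) and *TICAM1* (-0.23), while *EIF2AK2*, *ADAR*, *IFIH1* and *TLR3* were higher in both. *DHX58*, a relative of RIG-I, had 4 to 10 counts in a library and was not tested. *ZBP1* had 0 counts in every library. *MB21D1*, the DNA sensor cGAS that shares the fold of the OAS enzymes, had at most 9 counts in a library and was not tested.

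Of 12 genes of the interferon signalling chain and its feedback, all were tested, and 1 was higher and 2 lower at an unadjusted p under 0.05, near the 20.8% of all tested genes. *STAT2*, which carries the signal from the receptor to the nucleus, was at 104 and 108 CPM in the vector control and at 127 and 130 CPM in OE (log2 fold change 0.28, standard error 0.0733). Most *STAT2* counts of every library lay on ENST00000556539.1, for which the annotation defines no coding sequence. Its coding transcript ENST00000314128.4 had 119 and 114 (vector control) or 147 and 116 counts (OE), so that the groups overlapped. *IRF9*, the DNA-binding partner of STAT2, was lower, with 24 and 21 counts against 5 and 8 in OE, none of them on a transcript that the annotation calls coding. *SOCS3*, a feedback inhibitor of JAK kinases, was at 103 and 102 CPM and at 77.8 and 81.6 CPM (log2 fold change -0.36, standard error 0.0790). *IFNAR1*, a chain of the type I interferon receptor, had the widest error of the list (log2 fold change 1.67, standard error 0.932). It was at 20 and 22.2 CPM in the vector control, 18.7 CPM in OE replicate 1 and 115 CPM in OE replicate 2. Without OE replicate 2 the log2 fold change was -0.17. *JAK1*, a kinase of the receptor, and *SOCS1*, another feedback inhibitor, were lower in both OE libraries without passing an unadjusted p of 0.05 (log2 fold changes -0.24 and -0.46). *IRF7*, a factor that amplifies interferon production, was higher in both, at 9.32 and 14.3 CPM in the vector control and 17.3 and 18.1 CPM in OE (log2 fold change 0.58, edgeR unadjusted p = 0.0865). Its log2 fold change was 0.30 without vector control replicate 1 and 0.92 without the other vector control library. With the transcript of highest mean count it was 1.81 with a standard error of 2.6, since that transcript had 0 counts in vector control replicate 2. The adjusted p of the 3 genes under 0.05 was 0.128 or more in edgeR's test.

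Of 10 interferon genes, 6 had 0 counts in all libraries (*IFNA2*, *IFNK*, *IFNW1*, *IFNL2*, *IFNL3* and *IFNG*) and 1 was tested. *IFNA1* had 3 to 11 counts in a library, and *IFNL1* had 4 counts in OE replicate 1 and 0 elsewhere. *IFNB1*, the interferon that most cell types make on viral infection, had 0 and 2 counts with the empty vector and 13 and 0 in OE and was not tested. *IFNE*, an interferon made mostly by epithelium of the reproductive tract, had 244 and 247 counts with the empty vector and 142 and 207 in OE (edgeR log2 fold change -0.71 with standard error 0.178 and adjusted p = 0.158). Over the 35 genes of these lists and *MB21D1*, 23 were tested, of which 3 were higher and 5 lower at an unadjusted p under 0.05, against 20.8% of all tested genes. DESeq2 called 1 of them higher (*IFIH1*) and 2 lower (*PDE12* and *IFNE*), against 4.35% higher and 4.42% lower over all tested genes.

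**Figure D4:**
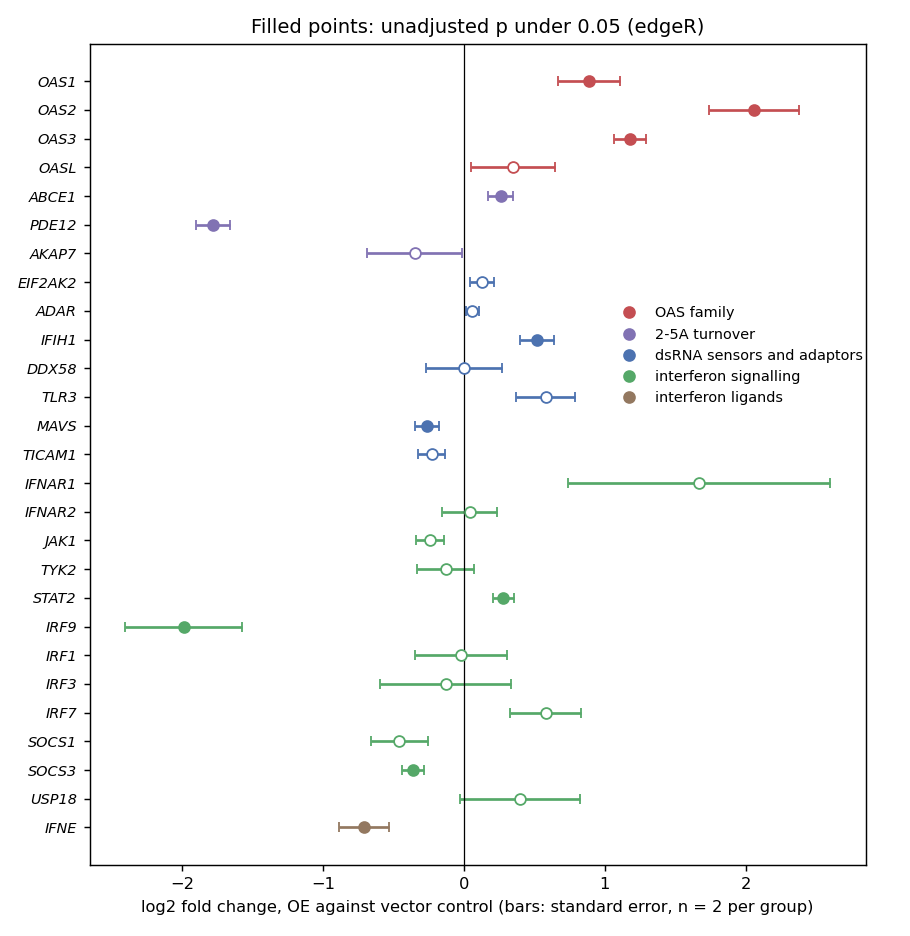
Log2 fold change (OE against vector control) with its standard error for the tested genes of the *OAS* family and the surrounding pathway, from edgeR's fit on 2 libraries per group. Filled points have an unadjusted p under 0.05, and among the genes of 2-5A synthesis and turnover *OAS2* (2.06) and *PDE12* (-1.78) stand farthest from 0, on opposite sides.

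The genes whose pattern over the 4 libraries was most like that of each member were sought among 17601 tested genes whose mean reached 1 CPM, by the root mean square distance between centred log2 CPM values. For *OAS2* the nearest was *CXCL11*, an interferon-induced chemokine (distance 0.0600, log2 fold change 2.23). It was followed by *XXbac-BPGBPG55C20.2* (0.075 and 2.1) and *AFF1* (0.0954 and 1.95). The distance compares patterns only, and the function of a gene played no part in the search. For *OAS3* they were *RP11-31F15.1*, *NMNAT2* and *PCYOX1* (0.0149 to 0.0294), for *OAS1* *ADCYAP1R1*, *THBD* and *TMOD1* (0.0288 to 0.0506), and for *OASL* *SRD5A3-AS1*, *CTC-349C3.1* and *REEP4* (0.0244 to 0.0288). Among the members the closest pair was *OAS1* and *OAS3*, at 0.184. With 4 libraries such a distance describes these libraries only.

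**Figure D5:**
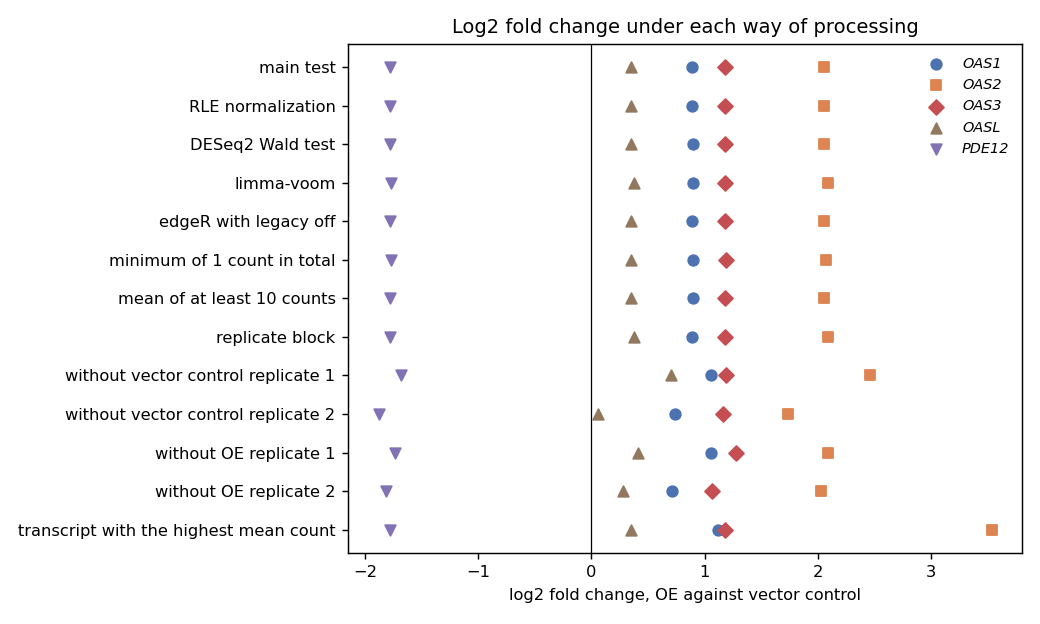
Log2 fold change of the 4 *OAS* genes and *PDE12* in the main test and under 12 other ways of processing, on a linear axis. *OAS3* stays between 1.07 and 1.28 and *PDE12* between -1.88 and -1.68, while *OAS2* reaches 3.54 when 1 transcript stands for the gene and *OASL* falls to 0.06 without vector control replicate 2.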

How the data were processed

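Total RNA of transduced SK-N-SH cells was sequenced in 2 vector control and 2 OE libraries, grouped by their treatment label. The authors trimmed the reads with Trimmomatic, aligned them to hg19 by Bowtie2, and deposited raw counts for 196520 transcripts. The submitters' processing notes also name Bowtie2 2.0.4, Picard 2.21.6 and StringTie 2.1.6, the last 2 without their role, and the study tested differential expression with DESeq2. The counting tool, the annotation release and the use of strand are not given in the sources used here. Bowtie2 on its own does not split reads across introns, which can lower counts over short exons.

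Counts were summed per gene, filtered with filterByExpr, normalized by TMM (factors 0.976 to 1.02) and compared by the quasi-likelihood test of edgeR 4.0.16 (R 4.3.3, legacy dispersions), two-sided, with Benjamini-Hochberg adjustment over 20528 genes. DESeq2 1.42.0 and limma-voom (limma 3.58.1) were alternatives. Positions and lengths came from the lifted GENCODE annotation of hg19, whose transcript versions are mostly newer than those of the table, so that length-scaled levels are approximate. The named genes were the members, the genes of 4 pathway lists with *MB21D1*, the overexpressed gene, neuroblastoma markers, and the 3 genes nearest to each member in pattern. Some genes of these lists are not reported here. The members and lists were chosen with earlier results of these data known. The scripts were tested on simulated data with a dispersion below the 0.122 estimated in these libraries. That simulation therefore does not show how the tests behave at the spread of these libraries. *PECAM1* was not found in the table by that symbol. Figures were drawn with matplotlib 3.10.9.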

Additional observations from a re-analysis of the deposited data

How the results depend on the processing

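The direction of all 4 *OAS* genes was the same under the 12 alternatives run for each. The setting that moved the calls was DESeq2's Wald test, under which *OAS1* (log2 fold change 0.90), *OAS2* (2.06) and *OAS3* (1.18) passed the thresholds. It called 3 of the 4 members, 3 of the surrounding genes and 1800 genes in all, against 0 of each in edgeR's test, and the cause was not tested. Over all genes, edgeR called 8 with the legacy setting off, 9 with a minimum of 1 count in total, 1 with the transcript with the highest mean count and 122 at an adjusted p under 0.05, while it called 0 members in each of these. At an unadjusted p under 0.05, 4269 genes differed in edgeR's test. With each library left out in turn, the log2 fold change was 0.71 to 1.06 for *OAS1*, 1.74 to 2.46 for *OAS2*, 1.07 to 1.28 for *OAS3* and 0.06 to 0.70 for *OASL*, and the ratio of the family sum was 1.96 to 2.29. The adjusted p over the alternatives was 0.00597 to 0.351 for *OAS1*, 6.45e-07 to 0.296 for *OAS2*, 1.03e-19 to 0.296 for *OAS3* and 0.370 to 0.924 for *OASL*.

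The replicate numbers only name the libraries (correlation of the replicate differences between conditions -0.0216 over tested genes). With a replicate block the log2 fold changes were 0.89 for *OAS1*, 2.09 for *OAS2*, 1.18 for *OAS3* and 0.38 for *OASL*, and 0 genes were called, as without it.

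Among the surrounding genes 7 changed sign under some alternative. *DDX58*, at 0.00 in the main test, was at 0.02 with limma-voom, 0.00 with a minimum of 1 count, 0.01 with the replicate block and -0.26 to 0.29 with a library left out. *IRF1* (-0.02) was at 0.36 with its highest transcript and -0.52 to 0.35 with a library left out. That transcript, ENST00000472045.1, is annotated as a retained intron. The coding transcript ENST00000245414.4 of *IRF1* was lower in OE, at 248 and 186 counts against 585 and 547, and was not tested by itself. A shorter coding transcript, ENST00000458069.1, had 6 and 3 (vector control) or 11 and 12 counts (OE). With a library left out, *IFNAR1* (1.67) ranged from -0.17 to 2.45, *IFNAR2* (0.04) from -0.13 to 0.23, *TYK2* (-0.13) from -0.35 to 0.13, *IRF3* (-0.13) from -0.66 to 0.36 and *USP18* (0.40) from -0.01 to 0.84. Counts under 30 per library limit *OAS2* in the vector control and *IRF9* throughout.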

Other observations

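Counts of several interferon signalling genes, chosen here with their values known, moved between transcripts from library to library. *IFNAR1*, a chain of the type I interferon receptor, had 466, 521 and 470 counts on ENST00000416947.2 in the vector control libraries and OE replicate 1, and 0 there in OE replicate 2. That library instead had 3332 counts on ENST00000270139.3, which had 0 counts in the other 3. *IRF7* had 333 counts on ENST00000397566.1 in vector control replicate 2 and at most 1 elsewhere, while ENST00000525445.1 held 217, 381 and 505 counts in the other 3 libraries and 0 in that one. Among the members, *OAS1* had 33 counts on ENST00000553152.1 in vector control replicate 1 and 0 there in the other libraries, and *OAS2* had 16 and 13 counts on ENST00000449768.2 in the vector control and 0 in OE. *OAS3*, *OASL* and *PDE12* each had counts on a single transcript.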
